A study of Mus with 8 samples.

Results

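The salt-inducible kinases Sik1, Sik2 and Sik3 and 6 of their known substrates are described here in mouse livers of the groups Control and LKB1 KO. The substrates are the coactivators Crtc1, Crtc2 and Crtc3 and the class IIa histone deacetylases Hdac4, Hdac5 and Hdac7. The members were chosen by gene symbol, and each of the 9 had 1 row among 23185 named rows. Expression arrays were run on liver collected 48 h after partial hepatectomy, in which part of the organ is cut away and what is left regrows. Of 8 samples, 4 carried the label Ctrl (Control in what follows) and 4 the label KO_LKB1 (LKB1 KO in what follows). The hepatectomy was common to both groups. How and in which cells LKB1 was deleted, the control genotype, and the strain, age and sex of the mice are not stated in the labels used here.

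LKB1, encoded by Stk11, is a protein kinase that switches on the salt-inducible kinases by phosphorylating their activation loop. Active salt-inducible kinases phosphorylate CRTC coactivators and class IIa HDACs, which are then held in the cytoplasm by anchor proteins of the YWHA family. When the kinases are inhibited, for example through cAMP and protein kinase A after glucagon, the dephosphorylated proteins enter the nucleus. There the CRTCs act with CREB on cAMP-responsive genes, and in liver class IIa HDACs act with FOXO factors on genes of glucose production. The arrays measured transcripts and carry no value on phosphorylation, protein amount or location.

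Each value is a log2 expression value as deposited, and a difference is LKB1 KO minus Control with its moderated standard error (SE). The threshold for a call was a limma p of 0.05 after Benjamini-Hochberg adjustment over the 23185 named genes. Of these, 458 passed, with 113 higher and 345 lower in LKB1 KO. Array medians lay between 3.75 and 3.96 log2 units, and all 8 hepatocyte markers, among them Alb and Hnf4a, lay above background on every array. On a scale of summed marker levels (the log2 of the sum of unlogged values), the hepatocyte markers ranged from 14.7 to 14.8 in Control and from 14.5 to 14.6 in LKB1 KO, and 0 of the 8 passed by limma, with 2 lower at an unadjusted p of 0.05. The 10 sinusoidal endothelial markers ranged from 10.1 to 10.4 in Control and from 9.70 to 9.89 in LKB1 KO, and the 10 macrophage markers from 10.0 to 10.8 and from 9.59 to 10.1. All 20 of the endothelial and macrophage markers had lower means in LKB1 KO and 3 of them fell (Kdr, Clec4g and Csf1r). Of these calls, that of Clec4g held with each single array left out, and those of Kdr and Csf1r were lost without any array other than Control 4 (Kdr, adjusted p up to 0.130) or Control 2 (Csf1r, up to 0.110). The 5 neutrophil markers ranged from 8.28 to 10.0 and from 7.60 to 8.22, with 0 past the threshold by limma and 3 lower at an unadjusted p of 0.05. Of 10 stellate cell markers, 8 had lower means, with 0 past the threshold by limma and 4 lower at an unadjusted p of 0.05, and their summed level ranged from 9.58 to 9.99 and from 9.13 to 9.78. The summed level of 3 erythroid markers ranged from 8.47 to 9.02 and from 7.23 to 8.98, with 2 means lower and 1 higher in LKB1 KO. Alas2 fell (-1.03, limma adjusted p = 0.0471), a call lost without any single array other than Control 4 (adjusted p up to 0.141). Hbb-bs (-0.86, limma adjusted p = 0.385) and Slc4a1 (0.38, limma adjusted p = 0.561) did not pass. None of the 20 endothelial and macrophage markers had a mean below 3.73 log2 units, the 95th percentile of the mean levels of 1354 olfactory and vomeronasal receptor genes, which serves here as a gauge of background. Of the 5 neutrophil markers, 3 had means below that gauge. For S100a9, a neutrophil marker, Control 4 read 9.47 and the other Control arrays 7.64 to 8.26. In bulk liver, fewer cells of a type and less RNA per cell cannot be told apart. LKB1 KO 2 and Control 4 had the lowest mean correlations with their own groups (0.974 and 0.976 over all named genes, against 0.979 to 0.983 for the other arrays), so results that rest on them are also given without them.

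Stk11 was low on each of the 4 LKB1 KO arrays. On the Control arrays 1 to 4, Stk11 read 6.69, 6.68, 6.46 and 6.76, and on the LKB1 KO arrays 1 to 4 it read 3.98, 3.97, 4.84 and 4.22. No array went against its label. On none of the 4 LKB1 KO arrays did Stk11 fall below 3.73 log2 units, the gauge of background, and LKB1 protein was not measured. The difference was -2.39 log2 units (SE 0.19, limma adjusted p = 0.000453). Whether the probes lie inside the deleted region was not stated in the labels.

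Among the kinases, Sik1 transcripts were several-fold higher in the LKB1 KO livers, while Sik2 and Sik3 did not pass the test. Sik1 is the salt-inducible kinase whose own transcription is known to respond to cAMP and CREB. Sik1 stood at 6.54, 6.27, 6.93 and 7.23 log2 units on Control 1 to 4, against 9.51, 8.70, 9.04 and 9.17 on LKB1 KO 1 to 4. The groups did not overlap: the lowest LKB1 KO array, LKB1 KO 2, stood 1.47 log2 units above the highest Control array, Control 4. The means were 6.74 ± 0.43 in Control and 9.11 ± 0.33 in LKB1 KO (SD, n = 4). The rise of 2.36 log2 units (SE 0.23, 95% confidence interval 1.86 to 2.87, limma adjusted p = 0.00130) is 5.14-fold, with an interval from 3.62-fold to 7.30-fold. By p Sik1 ranked 13 among the 23185 genes, and by size 7 among the 113 that rose. Without LKB1 KO 2 the difference was 2.5 (adjusted p = 0.00370), and without both LKB1 KO 2 and Control 4 it was 2.66 (adjusted p = 0.00240).

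Sik2 had a narrow spread in Control and a wider one in LKB1 KO. Control arrays 1 to 4 gave Sik2 log2 values of 5.32, 5.43, 5.39 and 5.49, and LKB1 KO arrays 1 to 4 gave 5.04, 5.02, 5.33 and 5.41. LKB1 KO 1 and LKB1 KO 2 lay below all Control arrays, and the other two LKB1 KO arrays lay within the Control range. The difference was -0.21 log2 units (SE 0.13, 95% confidence interval -0.50 to 0.08, limma adjusted p = 0.562).

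Sik3 showed the smallest mean difference of the 9 genes. On the Control arrays 1 to 4, Sik3 read 6.50, 6.36, 6.59 and 6.24, and on the LKB1 KO arrays 1 to 4 it read 6.49, 5.70, 6.81 and 6.64. LKB1 KO 2 was the lowest of the 8 arrays, and LKB1 KO 3 and LKB1 KO 4 were the highest. The difference was -0.011 (SE 0.22, 95% confidence interval -0.50 to 0.48, limma adjusted p = 0.991). Its sign rested on LKB1 KO 2: without that array the difference was 0.23 (SE 0.14, adjusted p = 0.559). Leaving out Control 1 or Control 3 also turned the sign, to 0.015 and 0.045.

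The change of Sik1 was tested directly against those of Sik2 and Sik3, by an exact two-sided permutation test of the per-array difference between the genes. Sik1 was the kinase called in these same arrays, so the test gives no separate support for its rise. The change of Sik1 exceeded that of Sik2 by 2.57 log2 units and that of Sik3 by 2.37. In both comparisons the groups lay apart, and p was 0.0286 (exact permutation test, n = 4 per group, also 0.0286 after Benjamini-Hochberg adjustment over the 2 comparisons), the smallest that 70 regroupings can give.

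**Figure D1:**
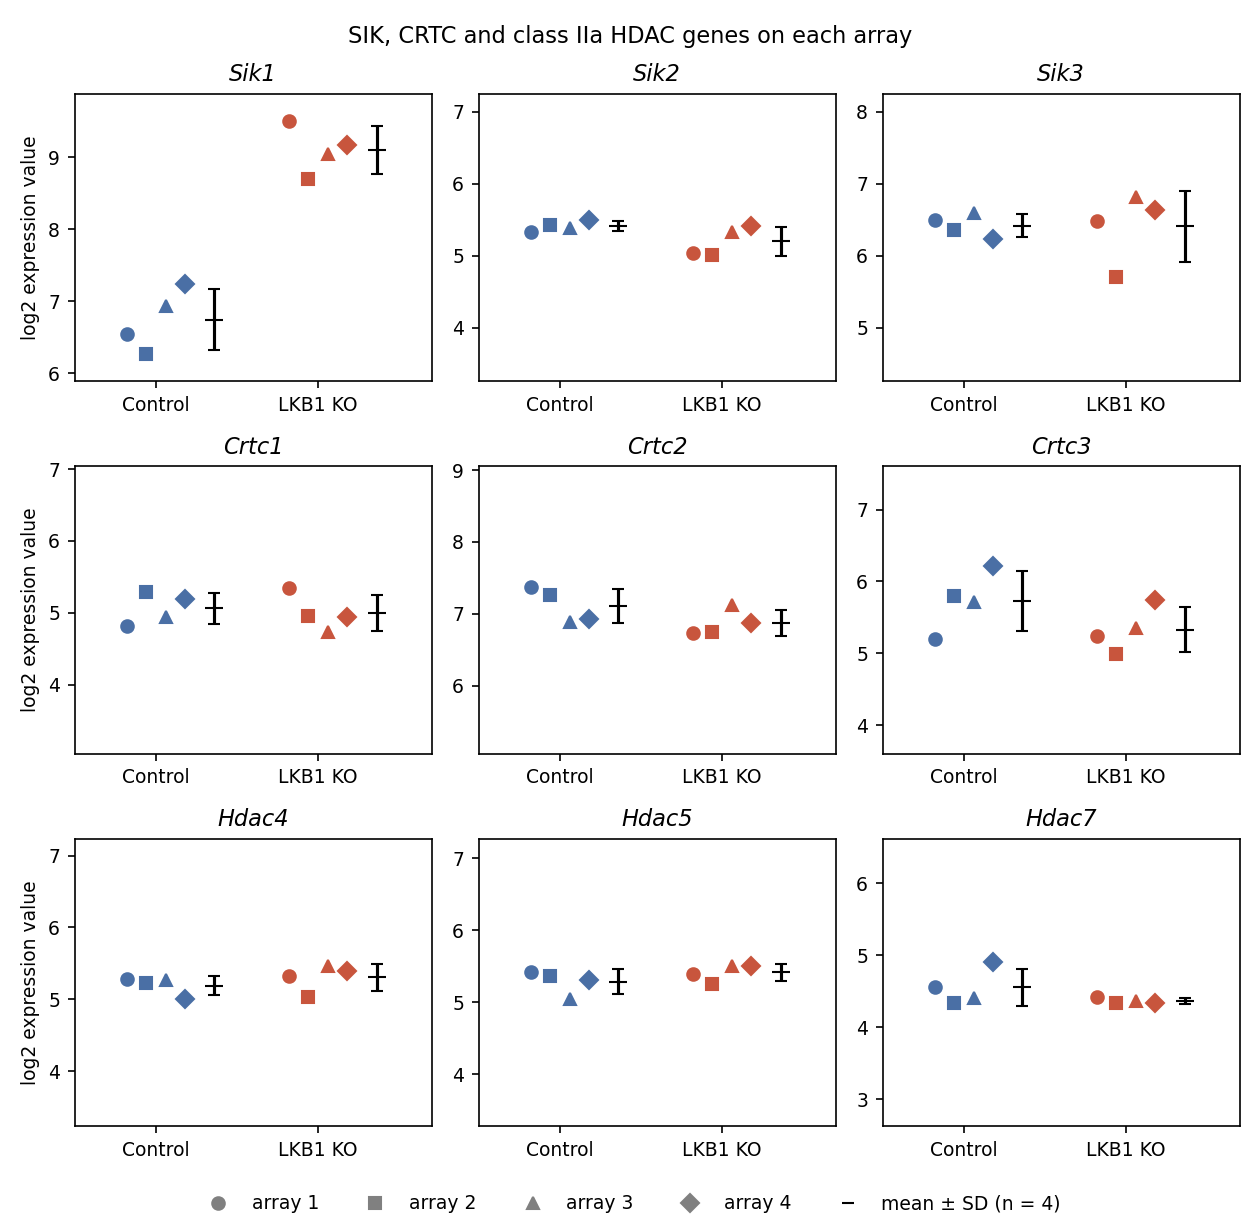
Log2 expression values (vertical axes, each spanning 4 log2 units) of the 9 genes in Control and LKB1 KO liver, with 1 point per array, a marker shape for each array number, and the mean ± SD of the 4 arrays beside them. For Sik1 all LKB1 KO arrays (8.70 to 9.51) lie above all Control arrays (6.27 to 7.23), and in the other 8 panels the groups overlap.

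None of the 3 CRTC genes passed the test, and all 3 means were lower in LKB1 KO. Crtc1 encodes the family member best known from neurons. Crtc1 stood at 4.82, 5.29, 4.95 and 5.19 log2 units on Control 1 to 4, against 5.34, 4.96, 4.74 and 4.94 on LKB1 KO 1 to 4. The highest and the lowest of the 8 arrays were both from LKB1 KO, and the difference was -0.067 (SE 0.16, 95% confidence interval -0.43 to 0.29, limma adjusted p = 0.906). That sign turned without Control 2 (0.0091) or LKB1 KO 3 (0.019).

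Crtc2 encodes the CRTC best known for the response of liver to glucagon and fasting. Control arrays 1 to 4 gave Crtc2 log2 values of 7.37, 7.26, 6.89 and 6.93, and LKB1 KO arrays 1 to 4 gave 6.74, 6.75, 7.12 and 6.87. LKB1 KO 3 lay above Control 3 and Control 4, and the other three LKB1 KO arrays lay below every Control array. The difference was -0.24 (SE 0.15, 95% confidence interval -0.58 to 0.095, limma adjusted p = 0.558).

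Crtc3 had the largest difference among the 8 genes that did not pass. On the Control arrays 1 to 4, Crtc3 read 5.19, 5.80, 5.71 and 6.21, and on the LKB1 KO arrays 1 to 4 it read 5.24, 4.99, 5.35 and 5.75. Control 1 lay below 3 of the LKB1 KO arrays, and Control 4 was the highest array. The difference was -0.40 (SE 0.22, 95% confidence interval -0.89 to 0.097, limma adjusted p = 0.501). Without both LKB1 KO 2 and Control 4 it was -0.12 (adjusted p = 0.854). Other arrays moved it the other way. Without Control 1 it was -0.58 (95% confidence interval -1.03 to -0.12, limma adjusted p = 0.279). Without LKB1 KO 4 it was -0.54 (95% confidence interval -1.04 to -0.030).

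The 3 class IIa HDAC genes among the members did not pass the test either, and their means differed in sign. Hdac4 and Hdac5 encode deacetylases that repress MEF2-dependent transcription while in the nucleus. Hdac4 stood at 5.28, 5.23, 5.26 and 5.0 log2 units on Control 1 to 4, against 5.33, 5.03, 5.47 and 5.40 on LKB1 KO 1 to 4. Apart from Control 4 and LKB1 KO 2, the lowest of their groups, the LKB1 KO arrays lay above the Control arrays. The difference was 0.11 (SE 0.14, 95% confidence interval -0.19 to 0.42, limma adjusted p = 0.787), and without both of those arrays it was 0.14. It was 0.050 without Control 4 alone and 0.21 without LKB1 KO 2 alone.

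Control arrays 1 to 4 gave Hdac5 log2 values of 5.42, 5.37, 5.04 and 5.31, and LKB1 KO arrays 1 to 4 gave 5.40, 5.25, 5.50 and 5.51. LKB1 KO 3 and LKB1 KO 4 were the highest arrays and Control 3 the lowest. The difference was 0.13 (SE 0.13, 95% confidence interval -0.16 to 0.42, limma adjusted p = 0.742), and without Control 3 it was 0.045.

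Hdac7 encodes a class IIa deacetylase best known for its role in endothelial cells. On the Control arrays 1 to 4, Hdac7 read 4.57, 4.34, 4.4 and 4.91, and on the LKB1 KO arrays 1 to 4 it read 4.42, 4.33, 4.37 and 4.33. The LKB1 KO arrays lay close together (SD 0.044) around the lower end of the Control range (SD 0.26), with Control 4 the highest. The difference was -0.19 (SE 0.14, 95% confidence interval -0.51 to 0.13, limma adjusted p = 0.633), and without Control 4 it was -0.072. The 10 endothelial markers had a median difference of -0.50 in the same arrays, and their part in the value of Hdac7 was not tested.

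Of the 9 genes, 1 rose and 0 fell by limma, and at an unadjusted p of 0.05 the counts were also 1 and 0. Over all named genes 1.98% were called, 0.487% as higher and 1.49% as lower, and 13.4% had an unadjusted p below 0.05. Arrays of the groups did not overlap in 1 of the 9 genes, against 8.84% of all named genes (3.34% with LKB1 KO higher and 5.50% with it lower). The median difference of the 9 was -0.067, beside 0.016 over all named genes. With 9 genes, a count of 1 call is a description of Sik1 and not of the family. The 95% confidence intervals of the 8 genes that did not pass lay between a level 1.85-fold lower (Crtc3) and 1.39-fold higher (Sik3) in LKB1 KO. A 2-fold change in either direction was outside the interval of each of the 8. The bounds differed by gene, and for Hdac5 they were 1.12-fold lower and 1.34-fold higher. Changes inside the interval of a gene were not resolved with 4 arrays per group. For Crtc3 the lower bound passed 2-fold without Control 1 (2.04-fold), without LKB1 KO 4 (2.06-fold) or without moderation of variances (2.05-fold), and for the other seven genes no bound did so in any of the 17 alternative fits.

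**Figure D2:**
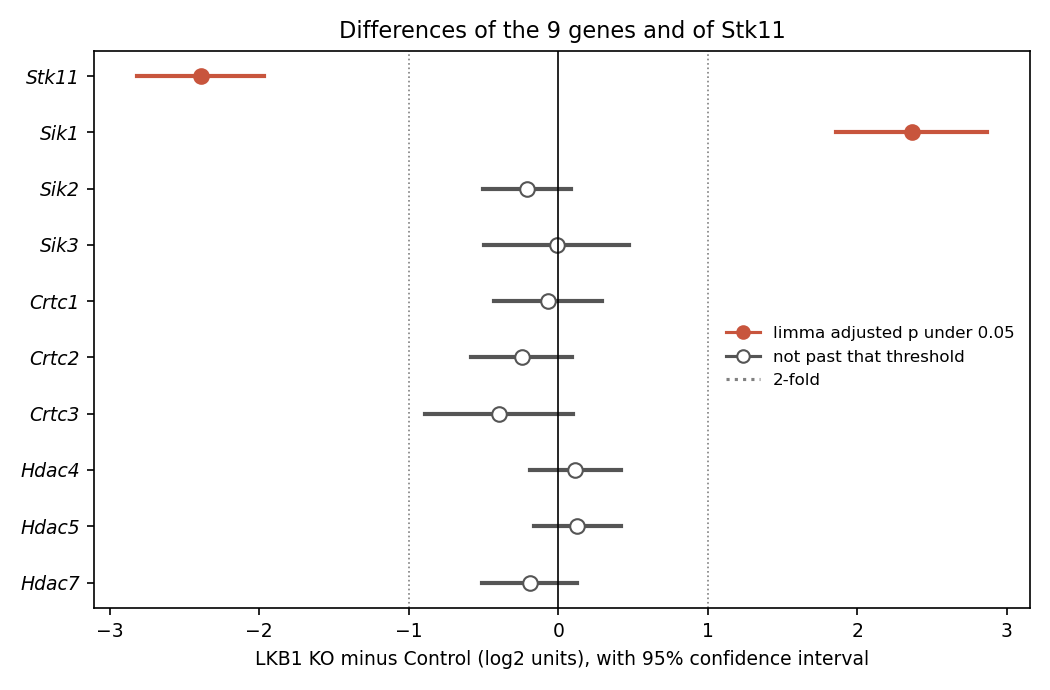
Differences between LKB1 KO and Control (horizontal axis, log2 units) for Stk11 and the 9 genes, with bars for the 95% confidence interval from limma (n = 4 per group), filled points for genes past the threshold and dotted lines at 2-fold. Stk11 lies at -2.39 and Sik1 at 2.36, and the bars of the other 8 genes cross 0 and stay inside the dotted lines.

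All 9 genes were measured above background. Each lay above 3.73 log2 units on every array, and all 9 had mean levels above the median named gene. The share of named genes with a lower mean ran from 59.0% for Hdac7 to 94.0% for Sik1, but probe brightness differs between genes and does not order the transcripts by amount. Within their group, 6 of the 9 genes (Sik1, Sik2, Sik3, Crtc3, Hdac4 and Hdac5) had their lowest LKB1 KO value on LKB1 KO 2, as did 32.7% of all named genes. That share includes dim genes and is not one of genes as bright as these 9. LKB1 KO 2 had the highest median (3.96) and the smallest spread over genes (SD 1.92, against 2.03 to 2.10 on the other arrays). The part of this spread in the count of 6 was not tested.

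Genes with other roles in the pathway were taken from 12 lists, chosen by function and covering 99 measured genes. The lists other than those of target and immediate early genes held 71 of them. Of these, 1 rose and 3 fell, Stk11 included, with a median difference of 0.022. Crem and Hdac9, among the 71, stand also on a list of targets. Among the 5 genes of the LKB1 complex, Stk11 fell and the other four did not pass. In the list of 11 other LKB1-dependent kinases (the AMPK, MARK, NUAK and BRSK kinases and SNRK), 0 passed by limma and 1 was lower at an unadjusted p of 0.05. That gene was Nuak2 (-0.46, SE 0.18, adjusted p = 0.288), and Nuak1 came next (0.26, SE 0.12, adjusted p = 0.405). Both Nuak genes lay below the background gauge on 4 of the 8 arrays.

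The glucagon receptor gene Gcgr, at the head of the cAMP route that restrains the salt-inducible kinases, was the 1 gene that fell among 12 of cAMP and protein kinase A, and 0 rose. Gcgr stood at 8.92, 8.91, 8.55 and 8.56 log2 units on Control 1 to 4, against 7.94, 7.56, 8.0 and 7.95 on LKB1 KO 1 to 4. The groups did not overlap. The difference was -0.87 (SE 0.15, limma adjusted p = 0.0173), a level 1.83-fold lower. The call was lost without Control 1 (adjusted p = 0.0563), without Control 2 (0.0627) and without moderation of variances (0.0863).

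Of 8 other kinases known to act on class IIa HDACs, Prkd3, a protein kinase D gene, fell and 0 rose. Control arrays 1 to 4 gave Prkd3 log2 values of 6.38, 6.85, 6.76 and 6.38, and LKB1 KO arrays 1 to 4 gave 5.88, 5.53, 5.91 and 5.95, with no overlap. The difference was -0.77 (SE 0.16, limma adjusted p = 0.0347). Leaving out any single array other than Control 4 ended that call (adjusted p up to 0.109), as did centring each array on its median (0.0554).

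Genes of the proteins that hold or release the substrates did not pass. Among 6 genes of the YWHA anchor protein family and its relative Sfn, which hold phosphorylated CRTCs and HDACs in the cytoplasm, 0 passed by limma, 1 was higher at an unadjusted p of 0.05, and the median difference was 0.26. The lowest p among them belonged to Ywhae (0.34, SE 0.11, adjusted p = 0.185), whose groups lay apart, followed by Ywhaq (0.26, SE 0.13, adjusted p = 0.449). Of 8 genes of the calcineurin and PP2A phosphatases, which remove the phosphate, 0 passed by limma and 0 at an unadjusted p of 0.05. Ppp2ca stood at 0.26 (SE 0.13, adjusted p = 0.453) and Ppp3ca at -0.22 (SE 0.20, adjusted p = 0.708).

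Partners of the CRTCs and HDACs on DNA held 1 call. Of 6 CREB factors and coactivators 0 passed by limma and 1, Crem, was higher at an unadjusted p of 0.05 (0.49, SE 0.15, adjusted p = 0.174), while Ep300 stood at -0.26 (SE 0.17, adjusted p = 0.579). Of 8 partners of class IIa HDACs, Mef2d, a MEF2 transcription factor gene, rose and 0 fell. On the Control arrays 1 to 4, Mef2d read 6.16, 6.44, 6.75 and 6.82, and on the LKB1 KO arrays 1 to 4 it read 7.61, 7.15, 7.67 and 7.76. The groups did not overlap, and the difference of 1.00 (SE 0.19, limma adjusted p = 0.0224) is a 2.00-fold higher level. Leaving out any single array other than Control 3, Control 4 or LKB1 KO 2 ended that call (adjusted p up to 0.0755). Of the 7 other HDAC genes, 0 passed by limma. Hdac11 was the 1 gene lower at an unadjusted p of 0.05 (-0.55, SE 0.18, adjusted p = 0.200), while Hdac1 stood at -0.41 (SE 0.26, adjusted p = 0.563). Hdac9, a class IIa gene that is not one of the members, is among the 7 and stood at 0.25 (SE 0.17, limma adjusted p = 0.598). It lay below the background gauge on 5 of the 8 arrays.

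**Figure D3:**
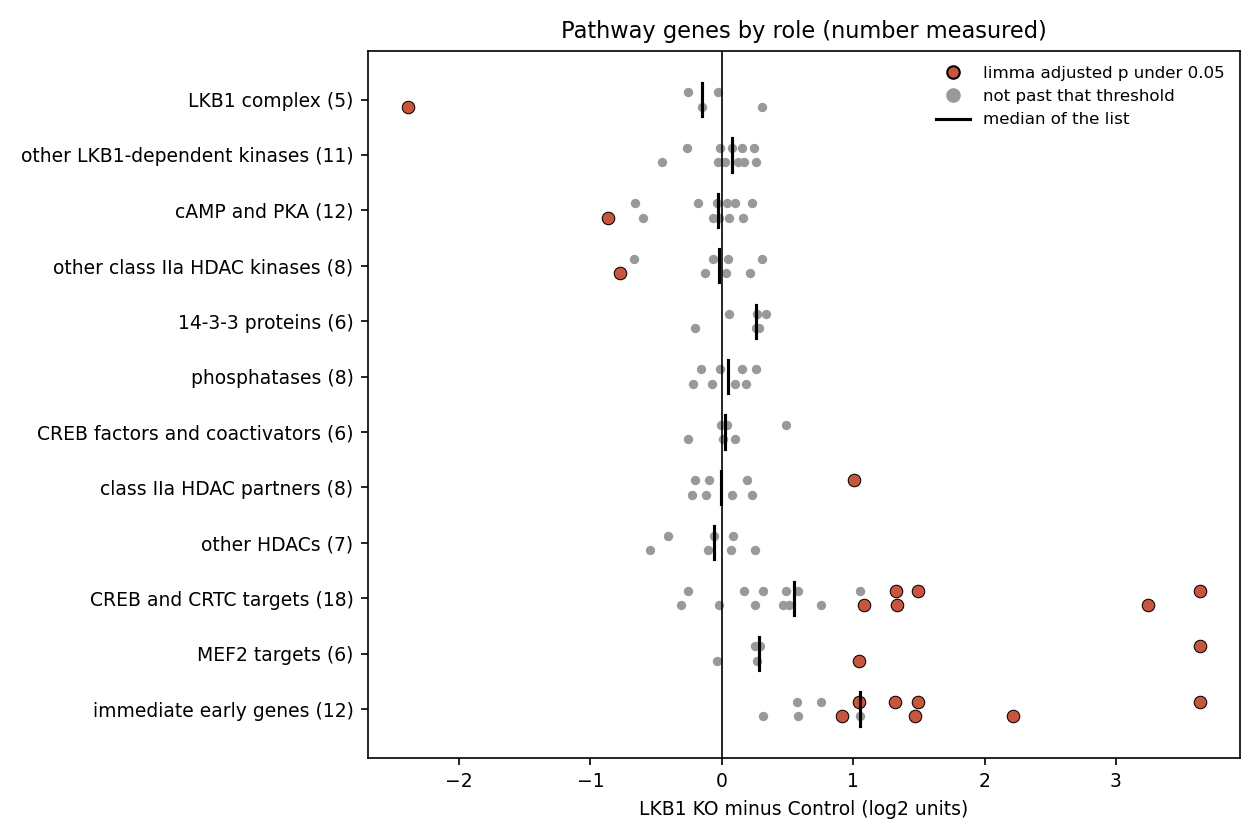
Differences between LKB1 KO and Control (horizontal axis, log2 units) of the measured genes on 12 lists by role, with 1 point per gene, red points for genes past the limma threshold and a black bar at the median of each list. The lists of CREB and CRTC targets (median 0.55) and of immediate early genes (median 1.05) lie to the right of 0, and the medians of the other lists lie between -0.15 and 0.28.

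Of 18 known target genes of CREB and the CRTCs, 6 rose and 0 fell by limma, and 12 were higher at an unadjusted p of 0.05. In 15 the LKB1 KO mean was the higher (median of the list 0.55 log2 units). Over all named genes 0.487% were called higher, and 13.4% had an unadjusted limma p below 0.05 in either direction. The list was chosen with earlier results of these data known, so its counts are a description. Nr4a1, the gene of a nuclear receptor induced by cAMP, ranged from 3.87 to 4.71 in Control and from 7.83 to 8.26 in LKB1 KO (limma adjusted p = 1.41e-05). Irs2, which encodes an insulin receptor substrate, stood at 6.34, 5.87, 6.02 and 6.19 on Control 1 to 4, against 7.72, 7.16, 7.50 and 7.35 on LKB1 KO 1 to 4, a difference of 1.33 (SE 0.16, limma adjusted p = 0.00284). The groups did not overlap for either gene.

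The kisspeptin gene Kiss1, the coactivator gene Ppargc1a and the glucose-6-phosphatase gene G6pc also rose, with differences of 3.24, 1.34 and 1.09. All 4 Control arrays of Kiss1 lay below the background gauge, so the size of its rise is uncertain. The call of G6pc was lost without both LKB1 KO 2 and Control 4 (adjusted p = 0.0520). Pck1, which encodes the gluconeogenic enzyme PEPCK and is a standard target of this route, stood at -0.023 (SE 0.14, limma adjusted p = 0.965), and Tat, the tyrosine aminotransferase gene, at 0.17 (SE 0.12, adjusted p = 0.610). These 2 genes were picked from the list after their values were seen, as members that did not move with Sik1.

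Of 6 known MEF2 targets, 2 rose and 0 fell. They were Nr4a1, also a CREB target, and Jun (1.04, SE 0.21, limma adjusted p = 0.0329), whose call ended without any single array other than LKB1 KO 2 (adjusted p up to 0.10) and after median centring (0.0646). Sik1 is also known as a gene that responds soon after a stimulus. Of 12 immediate early genes, 7 rose and 0 fell by limma, among them Atf3 (1.32, adjusted p = 0.00324) and Btg2 (1.47, adjusted p = 0.00807). In all 12 the LKB1 KO mean was the higher (median 1.05). Over all named genes 0.487% were called higher, and 12261 of 23185 had a higher mean in LKB1 KO. This list too was chosen with earlier results of these data known. The summed level of the 12 genes ranged from 10.1 to 10.6 in Control and from 11.0 to 11.6 in LKB1 KO. The part of these genes in the value of Sik1 was not tested. Egr1 (2.22) and Fos (1.49) were among the 7, and 4 of the 12 genes stand also on the CREB list. The count was 3 without LKB1 KO 1, LKB1 KO 3, LKB1 KO 4 or Control 1, and the calls of Egr1 and Fos were lost in each of these fits (adjusted p up to 0.0873). Fos also lost its call without Control 2 or Control 4.

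The genes most like Sik1 over the 8 arrays were sought by the mean absolute distance between log2 values, each gene centred on its own mean. The nearest were Gtdc1, a glycosyltransferase domain gene (0.28 log2 units), the follistatin gene Fst (0.30), Prom1 (0.31), the prolyl hydroxylase gene Egln3 (0.31) and the stress kinase gene Plk3 (0.33). Since Sik1 differs mainly by group, this measure selects genes that rose by a similar amount, and their differences lay between 1.91 for Plk3 and 2.51 for Fst. Among the LKB1 KO arrays, Sik1 and Egln3 were highest on LKB1 KO 1, Gtdc1, Fst and Plk3 on LKB1 KO 3, and Prom1 on LKB1 KO 4. The lowest LKB1 KO value lay on LKB1 KO 2 for Sik1, Gtdc1, Fst, Prom1 and Plk3, and on LKB1 KO 3 for Egln3. Among the Control arrays, Sik1 and Egln3 were highest on Control 4 and the other four genes on Control 3. Prom1 lay below the background gauge on Control 1 and Control 2 (3.32 and 3.25).

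**Figure D4:**
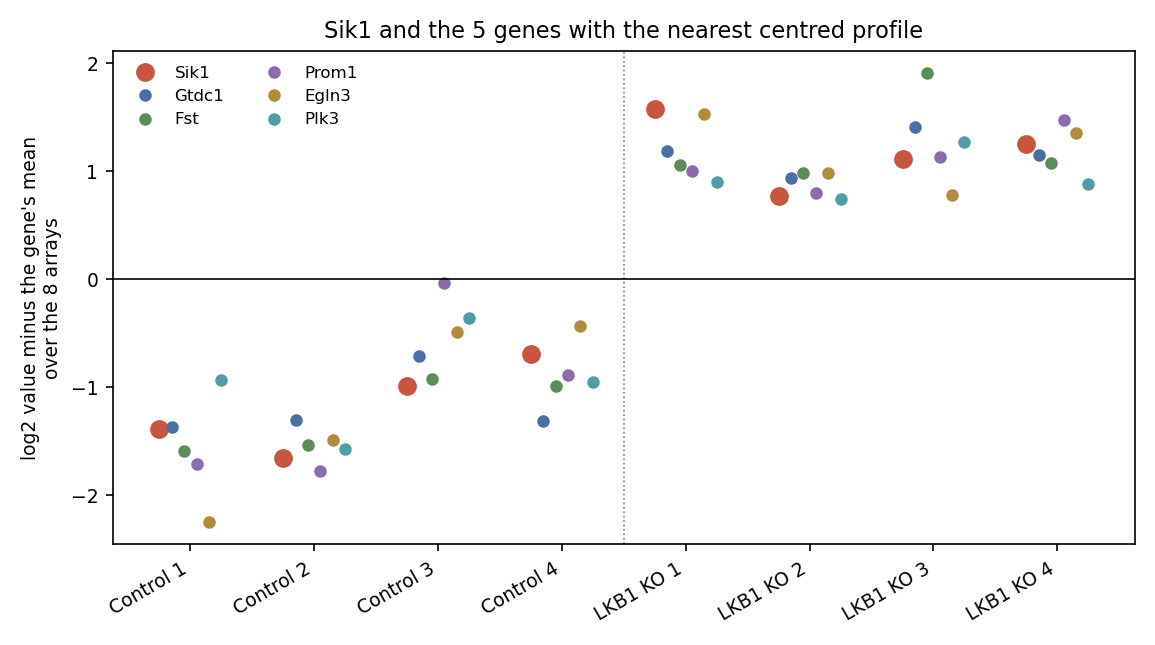
Log2 values minus the mean of each gene over the 8 arrays (vertical axis) for Sik1 and the 5 genes with the smallest mean absolute distance from it, shown for each array (horizontal axis). All 6 genes lie below 0 on the Control arrays and above 0 on the LKB1 KO arrays, with differences between 1.91 (Plk3) and 2.51 (Fst) log2 units.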

How the data were processed

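Total liver RNA was amplified, labelled with biotin and hybridised, 1 array per sample, per the labels' protocols. The deposited table holds log2 values, and the submitters' processing notes name RMA (background correction, normalization and probe summary) and Partek, which the authors used before deposit. No label names the array design or genome build, and coordinates are therefore left out. RMA compresses differences between dim probes. Symbols came from the platform annotation: of 25206 rows, 23185 had 1 symbol, 0 several and 2021 none. All 23185 matched the RefSeq gene table (GRCm38.p6) by Entrez ID, which supplied current names.

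Differences were computed with limma 3.58.1 in R 4.3.3 on all 23185 named rows, with the group as the single term and no filter on level. The script of this fit was checked on simulated data with known changes. Nothing in the labels says that the samples came from separate animals, so the p-values reflect only how these samples vary, which may be technical. The members, the lists and the tests were chosen with earlier results of these data known. Named genes were the 9 members, Stk11, up to 5 genes per list past the threshold (otherwise the 2 with the smallest p) and the 5 genes nearest to Sik1. Of 162 listed genes, 155 matched a named row. Alternatives were the replicate number as a block, arrays left out, quantile normalization, median centring, removal of the dimmest of 3 equal bins of genes, other variance priors, array weights and all rows.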

Additional observations from a re-analysis of the deposited data

How the results depend on the processing

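Over 17 alternatives Sik1 stayed past the threshold (differences 2.20 to 2.66, adjusted p from 0.000359 to 0.0419, the latter without moderation of variances), and in none of them did another of the 9 genes pass. With single arrays left out Sik1 ranged from 2.20 to 2.53, and the gap between its change and those of Sik2 and Sik3 from 2.38 to 2.71 and from 2.24 to 2.60. The sign of Sik3 turned with quantile normalization (0.041), array weights (0.14), without both LKB1 KO 2 and Control 4 (0.16) and with single arrays left out (-0.15 to 0.23), and that of Crtc1 with single arrays left out (-0.18 to 0.019). The count over all genes was 97 without moderation, 721 with array weights and 213 to 491 with single arrays left out, and quantile normalization, which made 36.8% of calls rises against 24.7%, did not change the members' counts. Without moderation 2 CREB targets and 2 immediate early genes rose, and Gcgr, Prkd3, Mef2d, Kiss1, Ppargc1a, G6pc, Btg2, Egr1, Fos, Jun, Prom1, Egln3, Plk3, Kdr, Csf1r and Alas2 lost their calls (adjusted p from 0.0588 for Ppargc1a to 0.209 for Alas2). With single arrays left out these counts ranged from 5 to 7 and from 3 to 7. The deviations of same-numbered arrays had correlations from -0.11 to 0.18. So few arrays cannot show whether equal numbers pair the samples, and the labels do not say. With the replicate number as a block 268 genes passed, and Sik1 stayed at 2.36 (adjusted p = 0.00461), while Gcgr (adjusted p = 0.0630), Egr1, Jun, Prkd3, Kdr, Csf1r and Alas2 lost their calls (adjusted p up to 0.105). The number of arrays limits the precision, and the cause of these shifts was not tested.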

Other observations

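Some pathway genes that missed the threshold had arrays that did not overlap between the groups. They were chosen after their values were seen, and 8.84% of all named genes had such arrays. Adcy6 and Adcy9, genes of adenylyl cyclases, which make cAMP, stood at -0.60 (SE 0.17, limma adjusted p = 0.115) and -0.66 (SE 0.18, limma adjusted p = 0.0958). Of the 12 genes on their list, Gcgr included, 5 had higher and 7 lower means, with a median difference of -0.027. Per1, a CREB and CRTC target, and Ier3, an immediate early gene, each stood at 1.05 (limma adjusted p = 0.0643 and 0.0553). Camk1d, the gene of a calcium-dependent kinase, stood at -0.66 (SE 0.17, limma adjusted p = 0.0857). Cab39, which encodes the scaffold MO25 of the LKB1 complex, stood at 0.31 (SE 0.13, limma adjusted p = 0.330), with Control values up to 6.79 and LKB1 KO values from 6.80.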
